A study of Mus musculus with 8 samples.

Results

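The enzymes that build and sulfate glycosaminoglycans were examined in mouse embryonic fibroblasts before and after ultraviolet (UV) light. The 54 genes were chosen by symbol, from 39175 genes in the deposited tables: xylosyltransferases, glucuronyltransferases, the Ext family, chondroitin synthases, epimerases, sulfotransferases, the extracellular sulfatases Sulf1 and Sulf2, and hyaluronan synthases. The family was proposed with the UV responses in these tables known, among them those of Chst12 and Hs3st1, so UV responses below are a description and carry no test of their own.

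Fibroblasts of the C57BL/6J background came from p53-/- mice (called p53KO) or from p53-/-Cry1-/-Cry2-/- mice (called p53CryKO), so all groups share the loss of p53 per the labels. Each was left untreated or given 40 J/m2 of mainly 254 nm light and harvested 16 h later, with 2 biological replicates in each of the 4 groups. The labels do not say how many embryos gave rise to each genotype's cells, so the genotype and the cell line cannot be told apart. The files hold 1 pooled FPKM (a level corrected for transcript length and library depth) for each gene and group, and none for its replicates, which leaves no SD. Errors are standard errors (SE) implied by the authors' Cuffdiff statistic, and a change is called a rise or a fall where the authors' q was 0.05 or less. Depth is unknown.

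Glycosaminoglycans are long sugar chains, most of them attached to core proteins, that fill the matrix around fibroblasts and bind growth factors. Heparan sulfate and chondroitin or dermatan sulfate start on the same short linkage region, are then extended by different polymerases, and are sulfated in the Golgi by transferases that use the donor PAPS. Hyaluronan is made at the plasma membrane without a core protein and without sulfate.

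Of the 54 genes, 31 reached FPKM of 1 in at least 1 group and 23 did not; 4 (B3gat1, Chst9, Hs3st2 and Hs3st4) were listed at 0 throughout. The authors tested 40 in p53KO and 38 in p53CryKO cells. The 13 tested in neither had at most 0.121 FPKM. Of 10 fibroblast markers, 9 were tested in each genotype and Lum was at or near 0 (at most 0.0502). Vim and Col1a1 were abundant, Col1a1 between 139 and 477 FPKM. In untreated cells Vim (1238 FPKM in p53KO and 2256 in p53CryKO) and Dcn (17.1 and 26.5) were higher in p53CryKO cells. The other fibroblast markers were lower there. The receptor genes were lower in p53CryKO cells, with Pdgfra at 17.7 and 5.66 FPKM before and after UV in p53KO but 3.26 and 1.27 in p53CryKO cells, and Pdgfrb at 16.99 and 11.1 but 8.42 and 4.52. Of 4 immune markers, Ptprc, Cd3e and Adgre1 were at or near 0 in every group, and Cd68 stood at 2.41 and 12.5 FPKM before and after UV in p53KO and 2.82 and 11.3 in p53CryKO cells. The 6 epithelial markers were each at most 0.132 FPKM in p53KO cells. In p53CryKO cells Epcam and Krt5 were near 0 as well, whereas Krt14 stood at 4.95 and 8.97, Cdh1 at 3.33 and 2.32, Krt8 at 1.93 and 5.76 and Krt18 at 1.45 and 3.01 before and after UV.

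Most of the pathway's transcripts were lower after UV in both genotypes. In p53KO cells 26 of 40 tested members fell, 3 rose and 11 did not pass in the authors' deposited table; of all genes tested there, 26.9% fell, 23.9% rose and 50.9% passed. In p53CryKO cells 25 of 38 fell, 2 rose and 11 did not pass, beside 27.2% of all genes falling, 25.1% rising and 52.3% passing. Falls of 4-fold or more were seen for 18 members in p53KO and 16 in p53CryKO cells, against 6.86% and 6.41% of all tested genes. The median log2 fold change was -1.66 over 39 members in p53KO and -1.84 over 38 in p53CryKO cells, beside 0.10 and 0.09 over all tested genes. Of the 37 members tested in both, 23 fell in both (24.1% of all such genes did), and 1 (Ext2) rose in both (20.8% of all such genes).

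The authors' scale matters for the few rises. Summed FPKM of all tested genes was 2.12-fold higher after UV in p53KO and 2.27-fold higher in p53CryKO cells. Scaling each pair to equal sums lowers every log2 fold change by 1.09 and 1.20; on that scale 38 of 39 members with a fold change lay below 0 in p53KO and 37 of 38 in p53CryKO cells. The exceptions were Hs6st3 in p53KO (0.62) and Has1 in p53CryKO cells (0.89). Rescaled calls used as cut-off the median size of the authors' statistic among genes with q near 0.05 (1.57 in both tables). The authors' q does not follow that size exactly, so these calls are approximate. By them 34 members were lower and 0 higher in p53KO, and 33 lower and 1 higher in p53CryKO cells. Chst13, listed at 0 after UV in p53KO cells, has no fold change there and enters none of these counts. The medians of all tested genes, 0.10 and 0.09 before scaling, also lie below 0 with equal sums. Shares of all genes were not counted on that scale, so its counts are no result about the members. Ratios between members within a group do not move with the scale. In these bulk samples, fewer cells expressing a gene and less of its RNA per cell cannot be told apart.

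**Figure D1:**
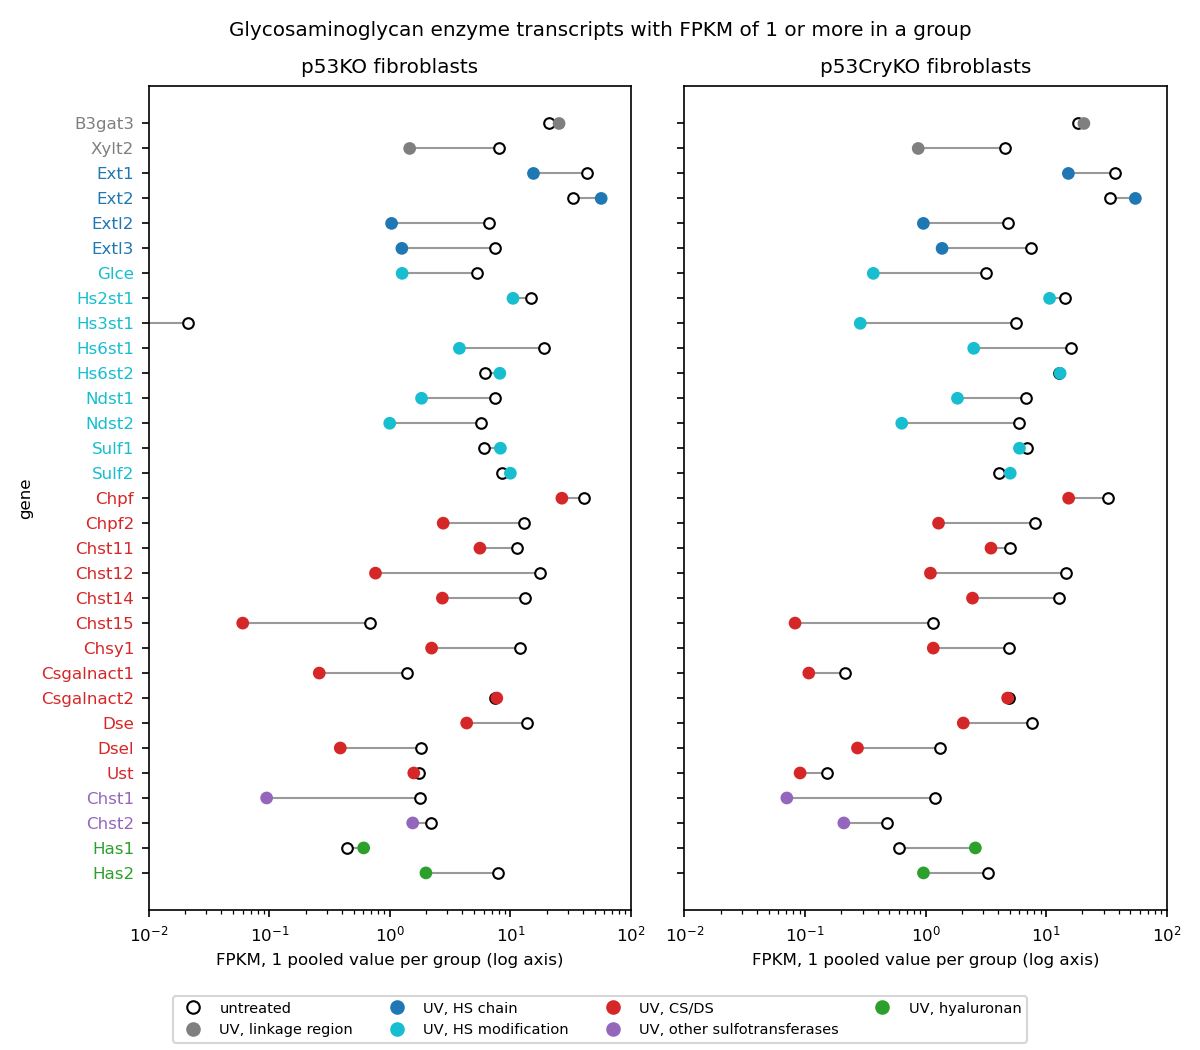
FPKM (log axis) of the 31 members that reached 1 in a group, in p53KO (left) and p53CryKO cells (right); open circles are untreated and filled circles UV-treated cells, coloured by role, with 1 pooled value per group. Most filled circles lie to the left of the open ones, and Ext2 lies to the right in both on the authors' scale; Hs3st1 in UV-treated p53KO cells is listed at 0 and has no point.

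Sequence before an annotated start is shown for 4 members whose responses part ways. Chst12 had the largest fall in p53KO cells among tested members with a fold change. Hs6st1 fell, its paralog Hs6st2 did not pass, and Ext2 rose on the authors' scale. Each run is the 250 bases before the RefSeq start on GRCm38.p6, 5′ to 3′ on the gene's strand, with capitals on matches, on either strand, to the TATA box TATAAA, the GC box GGGCGG, the CCAAT box CCAAT, the cyclic AMP element TGACGTCA, the AP-1 motif TGANTCA or the NRF1 motif. GENCODE places some starts further upstream than RefSeq, so all 250 bases of the Hs6st2 window and 59 of the Chst12 window lie inside the GENCODE gene; the Hs6st1 and Ext2 windows lie outside it.
Chst12 (chr5:140505359-140505608, plus strand): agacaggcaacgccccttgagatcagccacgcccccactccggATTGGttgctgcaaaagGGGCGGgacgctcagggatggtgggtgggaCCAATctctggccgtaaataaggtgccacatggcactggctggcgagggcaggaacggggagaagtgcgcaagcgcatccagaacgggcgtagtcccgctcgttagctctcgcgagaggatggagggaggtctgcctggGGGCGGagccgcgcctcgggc
Hs6st1 (chr1:36068150-36068399, plus strand): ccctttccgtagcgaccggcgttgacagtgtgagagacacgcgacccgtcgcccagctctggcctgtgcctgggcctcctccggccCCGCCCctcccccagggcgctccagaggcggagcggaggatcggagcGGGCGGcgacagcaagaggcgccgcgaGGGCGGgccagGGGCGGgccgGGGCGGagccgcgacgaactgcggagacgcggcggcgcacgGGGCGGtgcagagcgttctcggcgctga
Hs6st2 (chrX:51681603-51681852, minus strand, the first of 2 starts listed): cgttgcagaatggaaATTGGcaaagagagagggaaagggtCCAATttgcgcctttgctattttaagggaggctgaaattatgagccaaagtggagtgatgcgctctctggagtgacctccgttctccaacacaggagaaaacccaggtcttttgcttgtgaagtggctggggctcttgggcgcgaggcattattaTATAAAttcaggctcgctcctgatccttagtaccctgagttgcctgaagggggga
Ext2 (chr2:93822569-93822818, minus strand): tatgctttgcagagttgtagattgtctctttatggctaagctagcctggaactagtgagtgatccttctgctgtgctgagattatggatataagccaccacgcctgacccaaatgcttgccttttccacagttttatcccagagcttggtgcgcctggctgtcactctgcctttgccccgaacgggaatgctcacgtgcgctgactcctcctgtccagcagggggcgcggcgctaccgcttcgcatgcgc

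The Hs6st1 window is 76.4% G or C, with 37 CpG and 6 GC boxes. The Hs6st2 window is 50.0% G or C, with 7 CpG, no GC box, 1 TATA box and 2 CCAAT boxes; as it lies inside the gene by GENCODE and that of Hs6st1 does not, these paralogs' windows are not alike in position and were not compared. Chst12 has 2 GC boxes and 2 CCAAT boxes in 65.6% G or C, and Ext2 holds none of the 6 motifs in 54.8% G or C. RefSeq starts were found for 41 of the 54 members. A GC box was present in 15 of the 19 windows of members that fell in both genotypes (78.9%), in 28 of all 41 (68.3%) and in 61.7% of 8398 expressed genes (at least 1 FPKM in any group). A CCAAT box was present in 10 of the 19 (52.6%) and in 36.9% of the 8398, and a TATA box in 0 of the 19 and in 6.07%. The cyclic AMP element stood in 4 of all 41 windows (9.76%), in 0 of the 19 and in 2.92% of the 8398, and the AP-1 motif in 2 of the 41 (4.88%), in 0 of the 19 and in 4.04%. The NRF1 motif stood in 0 of the 41 and in 1.75%. With motifs this rare, nothing is read from a count of 0 in 19. A match is a run of letters and not a bound site.

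On the authors' scale the linkage region split between its first and last enzymes. Xylt2, which puts the first xylose on the core protein, was at 8.10 FPKM before and 1.46 after UV in the p53KO pair, and at 4.59 and 0.869 in the p53CryKO pair. These falls were 5.55-fold and 5.28-fold (log2 fold change -2.47, SE 0.39, and -2.40, SE 0.41). Its paralog Xylt1 was lower than Xylt2 in every group, between 0.0847 and 0.397 FPKM, and did not pass. B3gat3, which adds the glucuronic acid that completes the linkage, did not pass either, at 20.9 and 25.3 FPKM in p53KO and 18.5 and 20.6 in p53CryKO cells. With equal sums its log2 fold changes were -0.81 and -1.04, both called lower by the approximate cut-off. The other linkage genes, which are not members, fell in 4 of 4 cases in both genotypes, beside 26.9% and 27.2% of all tested genes. That list is short and was chosen with earlier results of these data known. Fam20b, a kinase for the linkage xylose, was at 13.4 and 6.59 then 9.29 and 5.69 FPKM. Pxylp1, a phosphatase acting on the linkage xylose, was at 9.75 and 1.94 then 3.51 and 1.04. The galactosyltransferase gene B4galt7 was at 6.99 and 2.57 then 6.98 and 2.87.

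On the authors' scale the 2 subunits of the heparan sulfate polymerase moved in opposite directions; with equal sums both had log2 fold changes below 0. Ext1 (chromosome 15, 53064038 to 53346159 of GRCm38, minus strand) measured 43.5 FPKM untreated and 15.5 treated in p53KO, and 37.3 untreated and 15.3 treated in p53CryKO cells, log2 fold changes of -1.49 (SE 0.39) and -1.29 (SE 0.33). Ext2 (chromosome 2, 93661028 to 93822568, minus strand) went from 33.1 to 56.6 and from 34.1 to 54.96 FPKM, log2 fold changes of 0.77 (SE 0.34) and 0.69 (SE 0.29). All 4 changes passed, with q between 0.000161 and 0.000326 in the authors' deposited table. The ratio of Ext1 to Ext2, which does not depend on the scale, stood at 1.31 then 0.274 across UV in p53KO fibroblasts and at 1.09 then 0.278 in p53CryKO fibroblasts. On the authors' scale their summed FPKM stayed between 70.2 and 76.6 in the 4 groups, which would not hold with equal sums. Centred on the median of tested genes, the Ext2 log2 fold changes were 0.73 and 0.63, and both calls held. Scaled to equal sums they were -0.31 and -0.51. The Ext2 rise thus holds on the authors' scale and with centring, and not with equal sums.

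The Ext-like enzymes fell in both genotypes. Extl3, which adds the first N-acetylglucosamine and so commits the chain to heparan sulfate, went from 7.44 to 1.26 FPKM and from 7.45 to 1.37, in p53KO and p53CryKO cells. Extl2, which can cap a chain at the linkage region, went from 6.64 to 1.03 and from 4.79 to 0.959. The fall was 5.91-fold and 5.44-fold for Extl3 and 6.42-fold and 5.00-fold for Extl2. Extl1 was not tested and had at most 0.0159 FPKM.

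Among enzymes that modify heparan sulfate, 7 of 11 tested members fell in each genotype, 2 rose in p53KO and 0 in p53CryKO cells. That is 63.6% falling in each, near all tested members (65.0% and 65.8%), beside 26.9% and 27.2% of all tested genes. N-sulfation comes first and is carried out by Ndst enzymes. Ndst1 was at 7.45 FPKM before and 1.83 after UV in the p53KO pair, and at 6.82 and 1.84 in the p53CryKO pair, and Ndst2 was at 5.74 and 0.997, then 5.96 and 0.634. Both fell in both genotypes, and the summed level of Ndst1 to Ndst4 was 13.9 then 3.05 and 13.5 then 2.77 FPKM. Glce, the epimerase that turns glucuronic into iduronic acid, went from 5.25 to 1.26 and from 3.18 to 0.368 FPKM, 4.15-fold and 8.63-fold lower.

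Transcripts of the O-sulfotransferases responded unevenly. Hs2st1, the single 2-O-sulfotransferase, fell slightly, from 14.8 to 10.5 FPKM and from 14.4 to 10.7 (log2 fold change -0.50, SE 0.28, and -0.44, SE 0.25), with q of 0.0248 and 0.0222 in the authors' deposited table. Hs6st1 (chromosome 1, 36068400 to 36106446, plus strand), a 6-O-sulfotransferase, fell from 18.9 to 3.77 and from 16.1 to 2.51 FPKM (log2 fold change -2.33, SE 0.29, and -2.68, SE 0.26). Its paralog Hs6st2 (chromosome X, 51387212 to 51681856, minus strand) did not pass, at 6.10 and 8.17 FPKM in p53KO and 12.9 and 13.1 in p53CryKO cells (log2 fold change 0.42, SE 0.39, and 0.02, SE 0.26; -0.67 and -1.18 with equal sums). Hs6st2 therefore was 24.2% of the summed Hs6st FPKM without UV and 65.5% with it in p53KO cells, against 44.3% then 83.3% in p53CryKO cells. The order of the paralogs turned in both: Hs6st1 was the higher one before and Hs6st2 after UV. Hs6st3 was low, rising from 0.162 to 0.527 FPKM in p53KO cells and untested in p53CryKO cells.

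The sulfatases that remove 6-O-sulfate outside the cell did not fall on the authors' scale, though with equal sums both had log2 fold changes below 0. Sulf1 stood at 5.99 and 8.26 FPKM in p53KO cells, where it rose with q of 0.0415 in the authors' deposited table. By the approximate cut-off, that call ends with centring on the median of tested genes with FPKM of 1 or more (0.42, SE 0.28). In p53CryKO cells Sulf1 stood at 6.93 and 6.01 and did not pass. Sulf2 stood at 8.46 and 9.99, and at 4.10 and 5.04, and passed in neither. The ratio of Sulf2 to Hs6st1, an eraser and a writer of the same mark, went from 0.446 to 2.65 and from 0.254 to 2.01. On the scale of equal sums the log2 fold changes of Sulf1 were -0.63 and -1.40 and those of Sulf2 -0.85 and -0.90.

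Of chondroitin and dermatan sulfate enzymes, 11 of 15 tested fell in p53KO and 10 of 14 in p53CryKO cells, with 0 rises in either. These shares (73.3% and 71.4%) were near those of all tested members (65.0% and 65.8%). Of all tested genes 26.9% and 27.2% fell. The summed FPKM of these enzymes went from 135 to 55.3 and from 94.7 to 32.4. The chain starts with Csgalnact1 and Csgalnact2, which add the first N-acetylgalactosamine. Csgalnact2 was the main one in every group and passed in neither genotype, at 7.48 and 7.71 then 4.96 and 4.79 FPKM. With equal sums its log2 fold changes were -1.04 and -1.25, both called lower by the approximate cut-off. Csgalnact1 fell in p53KO cells, from 1.39 to 0.260, and stood at 0.216 and 0.107 in p53CryKO cells, where it did not pass.

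Chain extension needs Chsy1 together with Chpf or Chpf2. Chsy1 measured 12.1 FPKM untreated and 2.22 treated in p53KO, and 4.94 untreated and 1.16 treated in p53CryKO cells, and Chpf2 measured 12.9 and 2.77, then 8.08 and 1.28; both fell in both genotypes. Chpf, the most abundant of these, was at 40.5 and 26.7 in p53KO cells, where it did not pass (q of 0.0753 in the authors' deposited table). It fell from 32.9 to 15.4 in p53CryKO cells. With p53KO fold changes centred on the median (-0.65, SE 0.41), its statistic was 1.59, just over the approximate cut-off of 1.57. Chpf thus formed 61.9% of the summed level of the extension enzymes before and 84.3% after UV in p53KO cells, against 71.6% then 86.3% in p53CryKO cells. Smarcd3 on the opposite strand overlaps 44.1% of the exonic length of Chpf2, and strand-aware counting is not stated by any source used, so Chpf2 is uncertain. The authors' locus is 6.73 times as long as the GENCODE gene for Chpf and 1.95 times for Chpf2, and how far this bears on their levels was not tested. The epimerases that make dermatan sulfate fell as well, Dse from 13.7 to 4.34 and from 7.70 to 2.05 FPKM and Dsel from 1.83 to 0.388 and from 1.31 to 0.272.

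The 4-O-sulfotransferases all fell, by unlike amounts. Chst12 (chromosome 5, 140505550 to 140525724, plus strand), which sulfates chondroitin, stood at 17.5 then 0.760 FPKM across UV in p53KO fibroblasts and at 14.6 then 1.10 in p53CryKO fibroblasts, 23.0-fold and 13.3-fold lower (log2 fold change -4.52, SE 0.38, and -3.73, SE 0.34). Chst14, which sulfates dermatan, went from 13.3 to 2.73 and from 12.7 to 2.45 (-2.28, SE 0.31, and -2.37, SE 0.28). Chst11, which shares the substrate of Chst12, fell from 11.4 to 5.58 and from 5.00 to 3.49 (-1.03, SE 0.28, and -0.52, SE 0.26). The ratio of Chst12 to Chst11 was 1.53 before and 0.136 after UV in p53KO, and 2.92 and 0.314 in p53CryKO cells. Chst11 was thus the lowest of the 3 before UV and the highest after it in both genotypes.

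Among the low chondroitin enzymes, Chst15 did not pass, at 0.689 and 0.0602 then 1.14 and 0.0827 FPKM; the authors' locus for it is 36.4 times as long as the gene, and its SE was 9.07 and 6.18. Among other members that reached 1 FPKM, the locus was 3.90 times the gene for Has2 and 1.97 for Sulf2, and shorter than the gene for Glce (0.204 times), Ndst1 (0.427), Extl3 (0.471), Ndst2 (0.608) and Chst2 (0.853). Ust, a 2-O-sulfotransferase of uronic acid, did not pass, at 1.74 and 1.58 then 0.152 and 0.0910. Chst13, a further 4-O-sulfotransferase, fell from 0.166 to a value listed at 0 in p53KO cells and from 0.630 to 0.0537 in p53CryKO cells.

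Sulfotransferases of other glycans and the hyaluronan synthases complete the family. Chst1, which sulfates keratan sulfate, fell from 1.78 to 0.0950 FPKM and from 1.19 to 0.0707, 18.8-fold and 16.9-fold. Chst2, which sulfates N-acetylglucosamine, fell from 2.20 to 1.55 and from 0.481 to 0.210. Chst10, which acts on the HNK-1 epitope, fell from 0.326 to 0.0244 and from 0.911 to 0.153. Has2 (chromosome 15, 56665627 to 56694539, minus strand), the main hyaluronan synthase of untreated cells, fell from 7.92 to 1.99 and from 3.30 to 0.960 FPKM. Has1 (chromosome 17, 17843323 to 17855205, minus strand) was at 0.438 and 0.607 in p53KO cells, where it did not pass, and rose from 0.608 to 2.59 in p53CryKO cells (log2 fold change 2.09, SE 0.37), where it became the highest of the 3. That rise kept its direction with equal sums (0.89). Has3 stayed at or under 0.357 FPKM and passed in neither.

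Other members stayed under 1 FPKM in every group. Ndst3 (0.614 and 0.197, then 0.685 and 0.286) and Chst7 (0.400 and 0.144, then 0.373 and 0.0870) fell in both genotypes. Hs3st6 fell from 0.884 to 0.0848 in p53KO cells and did not pass in p53CryKO cells (0.148 and 0.0451). Chst3 fell from 0.314 to 0.0409 in p53KO cells and was untested in p53CryKO cells, and Chst8 did not pass in p53KO cells at 0.855 and 0.943.

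**Figure D2:**
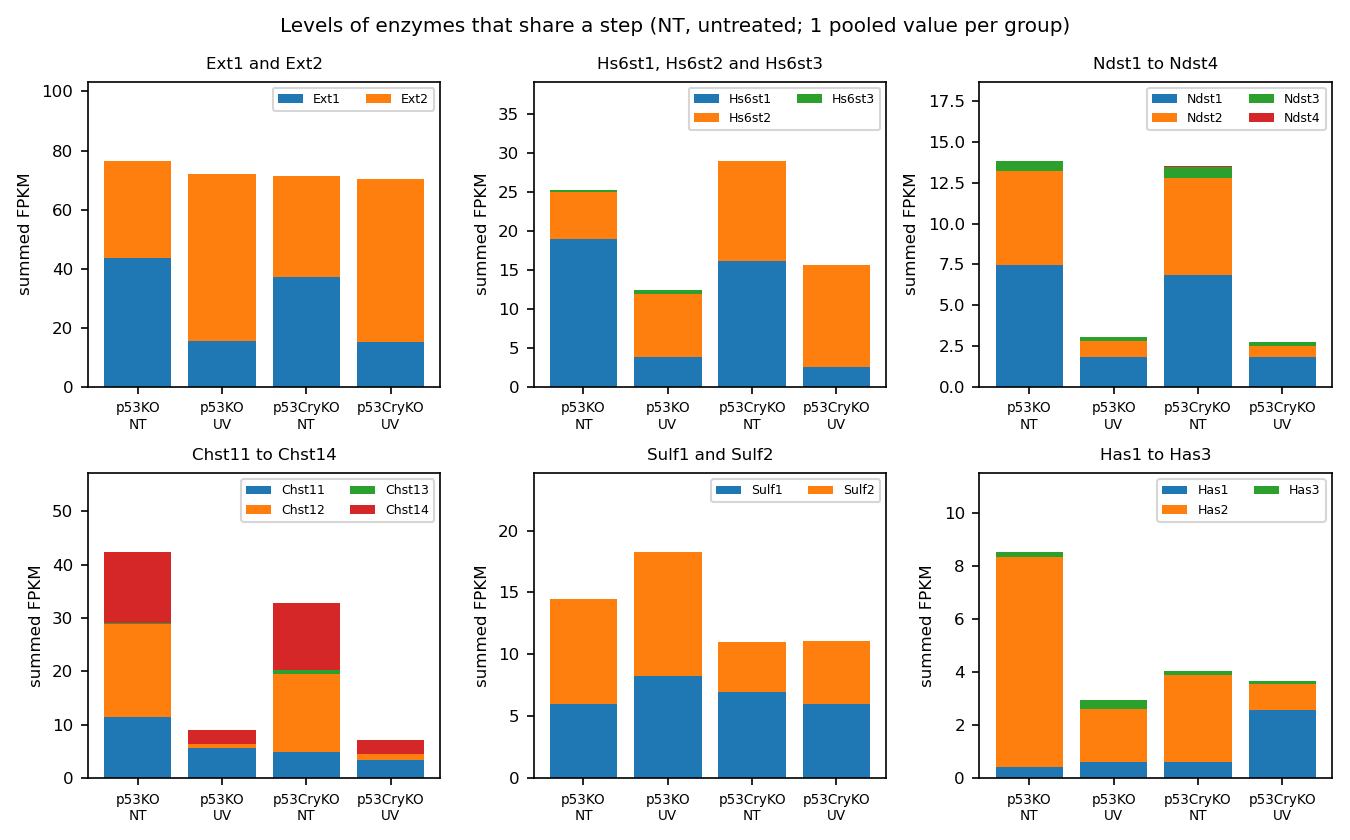
Stacked FPKM of enzymes that share a step, in untreated (NT) and UV-treated cells of each genotype, 1 pooled value per group. After UV, Ext2 exceeds Ext1, Hs6st2 exceeds Hs6st1 and Chst12 shrinks within its set in both genotypes; Has1 exceeds Has2 in UV-treated p53CryKO cells.

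No member was called different in its UV response between the genotypes. Log2 fold changes of the 36 members with a value in both had a Spearman rho of 0.87 and the same sign for 32, beside a rho of 0.93 and 90.5% over 12300 genes; points within a genotype share their libraries. Each gene's difference in response was divided by its implied SE and read against a normal curve, with Benjamini-Hochberg adjustment across the 12300 genes. That curve takes SEs from 2 replicates a group as known, which can make calls too easy. However, only 3.03% of all genes passed 0.05 before adjustment, so the test may instead be too strict. Counts are therefore given and no p-value. After adjustment, at 0.05, 0 of 30 members passed, as did 0.179% of all genes. Before adjustment 2 of 30 members passed, and 3.03% of all genes. These were Has1, 1.62 higher in p53CryKO cells (SE 0.60), and Glce, with a difference of -1.06 (SE 0.45). Sulf1, called in p53KO cells alone, differed by -0.67 (SE 0.38) and did not pass before adjustment, so its response is not shown to differ between the genotypes. Chst12 differed by 0.79 (SE 0.51). A difference that misses the threshold does not show that the responses are alike.

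**Figure D3:**
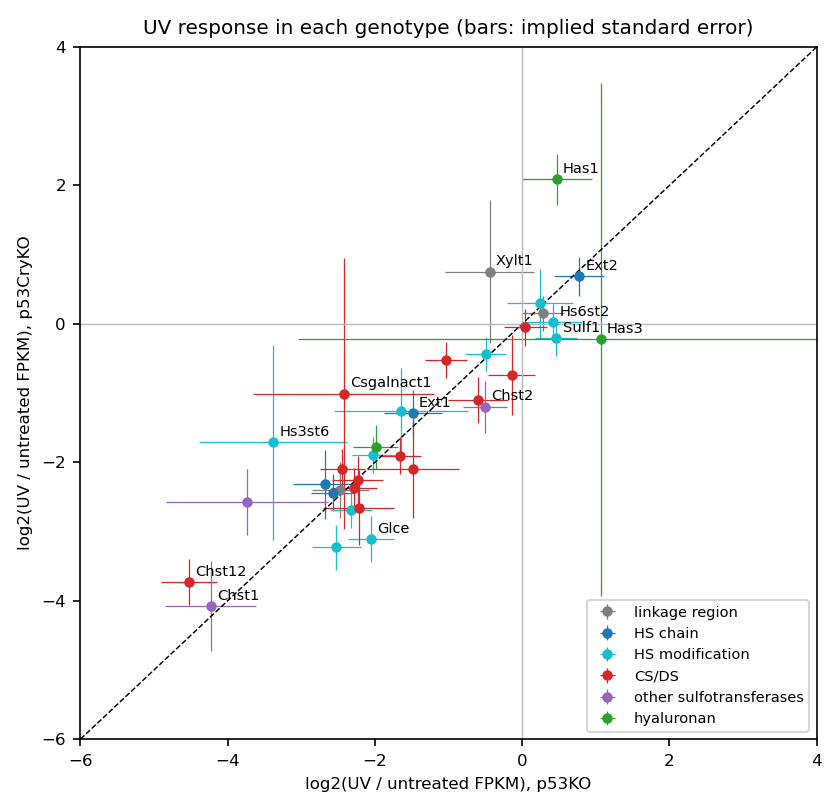
Log2 ratio of UV-treated to untreated FPKM in p53KO (x axis) and p53CryKO cells (y axis) for members tested in both, coloured by role; bars are the implied SE, the dashed line marks equal responses, and Chst15, with an SE of 9.07, is left out. Most points lie near the line and below 0 on both axes, and Has1 lies above it.

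Levels between the genotypes come from tables that were normalized separately, and with 1 pooled value per group they were set side by side without a test. Over 11685 genes that reached 1 FPKM in either untreated group the median log2 ratio of p53CryKO to p53KO was -0.07, and 5.37% of genes were 4-fold or more apart (2.82% lower and 2.54% higher in p53CryKO cells). Of 30 members at that level, 23 were lower in untreated p53CryKO cells, with a median log2 ratio of -0.39, where 55.9% of all genes were lower. Members 4-fold or more lower were 3: Ust (1.74 in p53KO and 0.152 in p53CryKO cells), Csgalnact1 (1.39 and 0.216) and Chst2 (2.20 and 0.481). Hs3st1 was the single member 4-fold or more higher. After UV, 5.6% of 11648 genes were 4-fold or more apart (2.78% lower and 2.82% higher in p53CryKO cells). Of 25 members at that level, Ust (1.58 and 0.0910) and Chst2 (1.55 and 0.210) were that much lower and Has1 (0.607 and 2.59) that much higher.

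Hs3st1 (chromosome 5, 39613935 to 39755475, minus strand) encodes the 3-O-sulfotransferase known for making the antithrombin-binding site of heparan sulfate. It stood at 0.0211 FPKM in untreated p53KO cells, too low for the authors' test, and was listed at 0 after UV. In p53CryKO cells it stood at 5.59 and fell to 0.287 after UV (log2 fold change -4.28, SE 0.55). The transcript was therefore counted at a level near that of the Ndst genes in one genotype and nearly absent in the other, and its UV response cannot be compared between them. The 6 epithelial markers summed to 0.309 and 0.371 FPKM before and after UV in p53KO and to 11.7 and 20.1 in p53CryKO cells. Epcam and Krt5 were near 0 in both. Of 10 fibroblast markers, Vim (1238 and 2256 untreated) and Dcn (17.1 and 26.5) were higher in p53CryKO cells. The others were lower there untreated, among them Pdgfra (17.7 and 3.26) and Pdgfrb. The 10 summed to 2750 and 3146 FPKM untreated. The part of either marker list in the differences between genotypes was not tested. Hs6st2 was 2.11-fold higher in untreated p53CryKO cells (6.10 and 12.9), and Sulf2 (8.46 and 4.10), Has2 (7.92 and 3.30) and Chsy1 (12.1 and 4.94) were 2.06-fold, 2.40-fold and 2.45-fold lower.

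**Figure D4:**
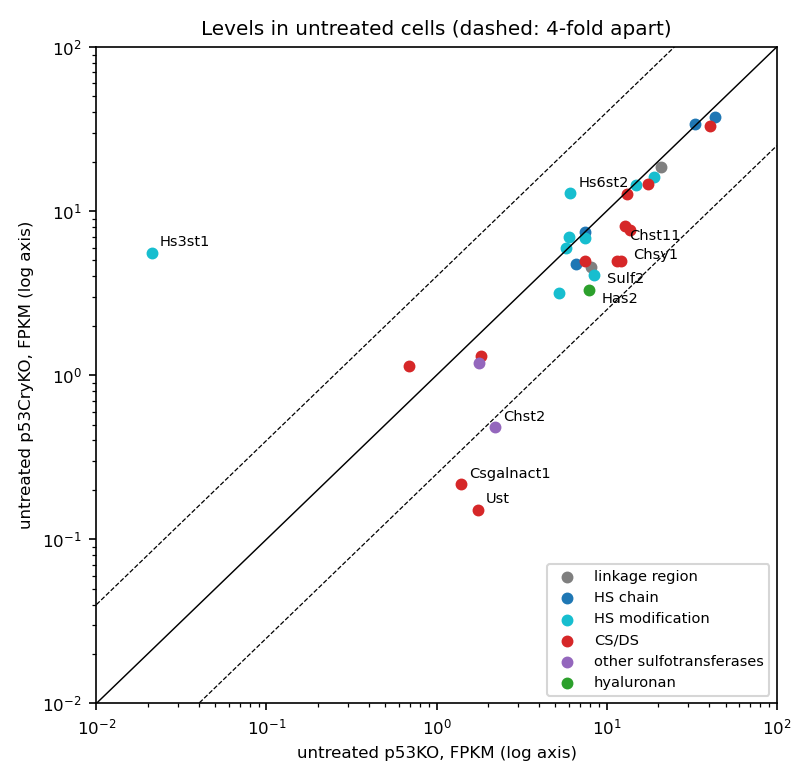
FPKM of members in untreated p53KO (x axis) and p53CryKO cells (y axis), both log axes, for the 30 members at 1 or more in either; the solid line marks equal levels and dashed lines 4-fold differences. Hs3st1 lies far above the upper dashed line, and Chst2, Csgalnact1 and Ust lie below the lower one.

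Members differ in gene structure, which the choice by symbol did not use. Several of the sulfotransferase genes carry their whole coding sequence in 1 exon, Chst14 in a gene of 2090 bases with no intron. Among members that reached 1 FPKM in any group, all 5 with 1 coding exon and a fold change fell in p53KO cells (median log2 fold change -2.28), as did all 6 in p53CryKO cells (-3.05). Those with 6 or more coding exons fell in 6 of 12 in p53KO (median -0.99) and 5 of 12 in p53CryKO cells (-0.87). All protein-coding genes at that level showed medians of -0.60 and -0.85 with 1 coding exon, where 47.1% and 52.96% fell, and of -0.08 and -0.07 with 6 or more, where 33.7% and 33.5% fell. Within each of these classes, the members' median was lower than that of all genes.

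Gene length went the other way in the family from the rest. Spearman's rho between the length of the gene and the log2 fold change was 0.23 over 30 members and -0.19 over 10749 protein-coding genes in p53KO cells, and 0.25 over 31 and -0.21 over 10785 in p53CryKO cells. With so few members these are weak relations and are given as a description. Members at 1 FPKM or more had a median span of 56323 bases, beside 23464 for all such genes, and the longest of them, Csgalnact1, spans 378366. Of other long ones, Hs6st2 (294645 bases) and Ust (314070 bases) passed in neither genotype, whereas Ext1 (282122 bases) and Chst11 (210403 bases) fell in both. In the longest quartile of genes (over 54437 bases), 9 of 15 members fell in p53KO (60%) and 9 of 16 in p53CryKO cells (56.25%). Of all protein-coding genes in that quartile, 41.4% and 43.5% fell.

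**Figure D5:**
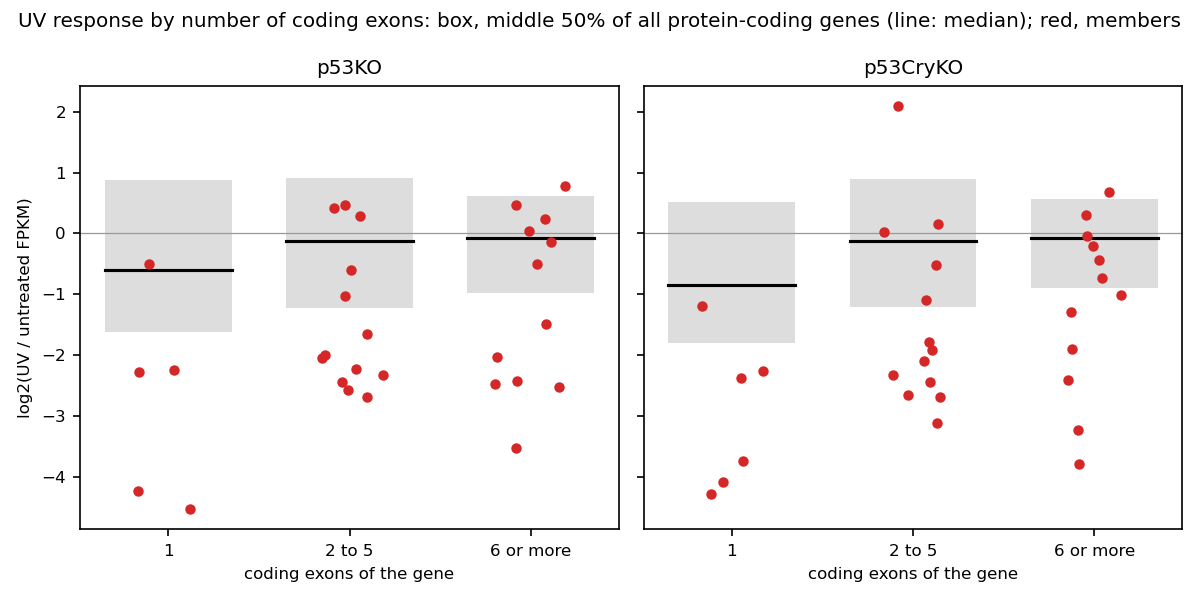
Log2 ratio of UV-treated to untreated FPKM by number of coding exons in p53KO (left) and p53CryKO cells (right). Grey boxes hold the middle 50% of all protein-coding genes that reached 1 FPKM in any group, black lines are their medians and red points are members; points with 1 coding exon all lie below 0, and those with more reach above it.

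Genes for precursors, core proteins and breakdown changed in both directions. Their counts are read beside all tested genes, of which 23.9% rose, 26.9% fell and 50.9% passed in p53KO and 25.1%, 27.2% and 52.3% in p53CryKO cells; the lists are short, and a share near these is no result about a list. Of genes for the sulfate donor PAPS, 1 rose and 3 fell of 7 tested in p53KO beside 0 rises and 3 falls among 8 in p53CryKO cells (57.1% and 37.5% called, medians -0.08 and -0.10). The PAPS synthase gene Papss1 did not pass, at 32.5 and 37.4 then 32.6 and 32.0 FPKM, while Impad1, a Golgi phosphatase that clears the spent donor, fell from 14.7 to 5.23 and from 13.6 to 5.62. Of genes for UDP-sugars, the 12 tested split into 3 rises and 7 falls in p53KO and 2 rises and 4 falls in p53CryKO cells (83.3% and 50.0% called); Uap1, which makes UDP-N-acetylglucosamine, fell from 25.1 to 11.8 and from 19.9 to 11.2, and Ugp2, which makes UDP-glucose, rose from 23.1 to 44.6 and from 22.2 to 34.1. Gfpt1, which starts the hexosamine route, fell from 15.3 to 10.4 and from 10.01 to 5.195, and Gnpnat1, an acetyltransferase of that route, rose from 10.2 to 17.6 in p53KO cells and did not pass in p53CryKO cells (11.96 and 13.95).

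Of genes for heparan sulfate core proteins, 2 rose and 4 fell of 13 tested in p53KO beside 3 rises and 6 falls among 14 in p53CryKO cells (46.2% and 64.3% called, medians 0.15 and -0.43). Of the 4 syndecan genes 3 fell and 1 rose in both genotypes. Sdc4 fell from 67.0 to 21.3 and from 79.0 to 36.5 FPKM, Sdc1 from 45.6 to 18.3 and from 43.7 to 19.6, and Sdc3 from 17.1 to 9.23 and from 5.07 to 3.03, whereas Sdc2 rose from 37.0 to 61.9 and from 27.6 to 41.5. Tgfbr3, the betaglycan gene, fell from 15.0 to 6.77 and from 6.99 to 2.72. Of genes for chondroitin and dermatan sulfate core proteins, 4 rose and 1 fell of 8 tested in p53KO beside 3 rises and 1 fall among 7 in p53CryKO cells (62.5% and 57.1% called, medians 0.55 and 0.67). Decorin (Dcn) rose from 17.1 to 79.0 and from 26.5 to 99.1 FPKM and biglycan (Bgn) rose in both (log2 fold change 1.14 and 0.99), while Cd44, the hyaluronan receptor, fell from 109 to 45.03 and from 81.3 to 55.1. With equal sums, Ugp2, Sdc2 and Gnpnat1 would lie below 0 in both genotypes and Bgn in p53CryKO cells.

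Of genes for breakdown, 6 rose and 4 fell of 19 tested in p53KO beside 5 rises and 5 falls among 18 in p53CryKO cells (52.6% and 55.6% called, close to all tested genes; medians 0.30 and 0.36). Hyal2, a hyaluronidase anchored at the cell surface, fell from 26.5 to 1.91 and from 15.9 to 1.17 FPKM, log2 fold changes of -3.79 and -3.77. Hexa, which encodes a lysosomal hexosaminidase subunit, rose from 29.1 to 87.8 and from 31.3 to 92.5 FPKM. That rise kept its direction with equal sums.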

How the data were processed

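Poly(A)-selected RNA was sequenced as paired ends, per the labels' protocols. The submitters' processing notes name STAR 2.5.2, Trimmomatic 0.35 and FastQC 0.11.5 beside Cuffdiff, Cufflinks and GRCm38, with options not given in the sources used here. Per the file headers, the authors deposited 1 FPKM per gene and group, with Cuffdiff's test statistic (a signed score), p-value and q-value, for each genotype in its own table.

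Log2 fold changes were computed from the deposited FPKM with no pseudocount. The SE is the size of the fold change over that of the authors' test statistic. The labels call replicates biological without saying that they came from separate embryos, so p-values measure only the spread between these samples, which may be technical. The difference test used genes tested in both tables with FPKM of 1 or more in a group, and was tested on simulated data. The simulated errors were drawn from a normal curve with the same implied SEs. They therefore cannot show whether those SEs or that curve suit the real data. All members and gene lists were chosen with earlier results of these data known. Members with FPKM of 1 or more are given in full; from other lists, up to 3 called genes with the largest change and FPKM of 5 or more were named, except 1 that is not reported here, and Papss1, Sdc2, Sdc3 and Cemip were added after their values were seen. Pxylp1, Cemip and Adgre1 were matched by gene ID. Gene structure came from GENCODE M21 (GRCm38) and upstream sequence from RefSeq (GRCm38.p6). The software was Python 3.11.15 with pandas 2.3.3, matplotlib 3.10.9, scipy 1.17.1 and numpy 2.4.6. A further table, which repeats the 14933 genes tested for both, was left out.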

Additional observations from a re-analysis of the deposited data

Results flagged for a closer look

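Of 57 genes of the supply, core protein, linkage and breakdown lists that entered the difference test, 1 passed. Cemip, which encodes a hyaluronan-degrading protein, stood at 0.812 and 1.00 FPKM before and after UV in p53KO cells and at 1.53 and 0.487 in p53CryKO cells. Its log2 response to UV was lower in p53CryKO cells by a difference of -1.96 (SE 0.46). This passed the adjusted threshold of 0.05 over 12300 genes. The test reads SEs from 2 replicates a group against a normal curve. Whether its calls come too easily or too rarely was not settled. Cemip fell in p53CryKO cells and did not pass in p53KO cells in the authors' deposited table. Each response rests on 1 pooled value per group.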

How the results depend on the processing

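No paired analysis was possible because the deposited tables hold 1 pooled value per group, and for the same reason no replicate could be left out. Counts of members that passed after UV were 29 in p53KO and 27 in p53CryKO cells. They stayed within 1.5 times of these with q of 0.01, a 2-fold minimum, FPKM of 1 or more, centring on the median, or equal sums. By the approximate cut-off of 1.57, centring ended the call of Sulf1 in p53KO cells and gave one to Chpf. There equal sums ended the calls of Ext2 and Hs6st3. Equal sums also turned the rises of Sulf1 in p53KO and Ext2 in p53CryKO cells into falls (-0.63 and -0.51). Among members with FPKM of 5 or more the counts were 18 and 13, as fewer members are tested. Median log2 fold changes of members kept their sign in every setting; a pseudocount of 1 FPKM gave -0.63 and -0.79, and equal sums, a choice made after seeing the data, gave -2.75 and -3.03. The difference test called 0 members in each of its 5 other settings. The setting that took the SE from the authors' Cuffdiff p-value adds little to this. Many members share the lowest p-value listed, 5e-05, and their SE then grows with the size of the fold change. Depth is unknown, so no limit for genes listed at 0 can be given.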
